A study of Homo sapiens with 24 samples.

Results

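The genes described here are 44 interferon-stimulated genes (ISGs), genes that human cells are known to switch on when interferon binds its receptors. They were taken by gene symbol from a set list, and 36 of the 44 are listed in at least 1 of the 5 deposited count tables, which together hold 16796 genes. RNA was sequenced from 4 small-cell lung cancer lines after 24 h with lurbinectedin, a DNA minor-groove alkylator that stalls elongating RNA polymerase II, or with DMSO as vehicle. The study set a pair of lines with high ISL1, a LIM homeodomain transcription factor, against a pair with low ISL1. The 8 groups were H187 with 0.1 nM lurbinectedin, H187 with DMSO, H209 with 0.1 nM lurbinectedin, H209 with DMSO, SHP-77 with 0.1 nM lurbinectedin, SHP-77 with DMSO, H82 with 0.1 nM lurbinectedin and H82 with DMSO. H187 and H209 are the ISL1-high lines and SHP-77 and H82 the ISL1-low lines. Each group had 3 libraries from what the design text calls biological triplicates. All lines were grown in medium with serum, and each ISL1 class is represented by a pair of lines.

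Type I interferons signal through IFNAR1 and IFNAR2 to the kinases JAK1 and TYK2, and STAT2 and IRF9 are subunits of the complex that then binds interferon-stimulated response elements (ISREs). Interferon gamma acts through gamma-activated sites (GAS). Double-stranded RNA and cytosolic DNA, the second of which is known to appear after DNA damage, start the same programme through sensors such as MDA5, RIG-I and the cGAS-STING pathway. The products include RNA sensors, enzymes that degrade or edit RNA, membrane proteins that block viral entry, and the ISG15 conjugation system.

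The 6 libraries of H187 held between 25678767 and 31675679 counts, those of H209 between 24226553 and 30711318, those of SHP-77 between 26616718 and 33735391 and those of H82 between 30425305 and 36415190. ISL1 separated the classes as labelled, with lurbinectedin means of 221 CPM (read counts scaled to a common library size by TMM) in H187 and 173 in H209, against 0.680 in SHP-77 and 3.76 in H82. Of 6 neuroendocrine markers, 5 were listed in H187, H209 and H82 and 4 in SHP-77, with summed levels between 674 and 2618 CPM in every library. CHGA was not listed in any table. Of 7 leukocyte markers, PTPRC, CD3E, LYZ and CD74 were not listed in any line table. The summed leukocyte markers that were listed reached at most 3.58 CPM. In H209 that sum was 3.04 to 3.58 CPM in the lurbinectedin libraries, against 1.94 to 2.22 CPM in the DMSO libraries. In H82 it was 2.25 to 2.59 CPM in the lurbinectedin libraries, against 1.35 to 1.93 CPM in the DMSO libraries. Their part in the results was not tested.

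The tables listed 30 members in H187, 32 in H209, 32 in SHP-77 and 12 in H82, and 33 in the table that compares the ISL1 classes under lurbinectedin. IFI27, IFI44, IFI44L, IFITM1, OAS1, OAS2, OASL and XAF1 were not listed in any table, so the OAS family was represented by OAS3 alone. BST2, IFITM2 and SP100 were listed in the SHP-77 table only. The tables hold no gene whose largest count is under 15, so a member that is not listed has no value here. The 12 members listed in all 4 line tables were IFI6, IFI35, IFIT5, IRF1, IRF9, STAT2, DDX58, EIF2AK2, PARP14, SAMD9, TRIM25 and ADAR.

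The first comparison asked what lurbinectedin did to these genes in each line. In H187, 13 of 30 members rose and none fell (edgeR quasi-likelihood test, adjusted p under 0.05 over all genes), where 24.9% of all 14023 genes changed in either direction and 12.2% rose. In H209, 11 of 32 members rose and 1 fell, where 45.2% of all 14421 genes changed and 22.7% rose. In SHP-77, 2 of 32 members rose and none fell, where 5.19% of all 14190 genes changed, 1.98% upward and 3.21% downward. In H82, none of 12 members changed, where 2.92% of all 13516 genes did, 1.55% upward and 1.38% downward. The median log2 fold change of the members was 0.22 in H187, 0.23 in H209, 0.054 in SHP-77 and 0.042 in H82. That of all genes lay between 7e-04 and 0.0044. Each member median covers the members tested in that line, 30 in H187, 32 in H209, 32 in SHP-77 and 12 in H82. The medians therefore rest on different genes and do not compare the lines like for like. At an unadjusted p under 0.05, 14 members were higher and 0 lower in H187, 13 higher and 1 lower in H209, 6 higher and 0 lower in SHP-77 and 1 higher and 0 lower in H82. DESeq2 called 12 members in H187, 12 in H209, 1 in SHP-77 and 0 in H82. Shares of all genes at the unadjusted threshold and with DESeq2 are not given. The unadjusted and DESeq2 counts therefore cannot be set against a background. In all, 17 of the 36 members tested in at least 1 line rose in at least 1 line. The matching share of all genes is not given, so this count has no background beside it. These are cultures in bulk, where a shift in the mix of cells and a change per cell cannot be told apart.

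**Figure D1:**
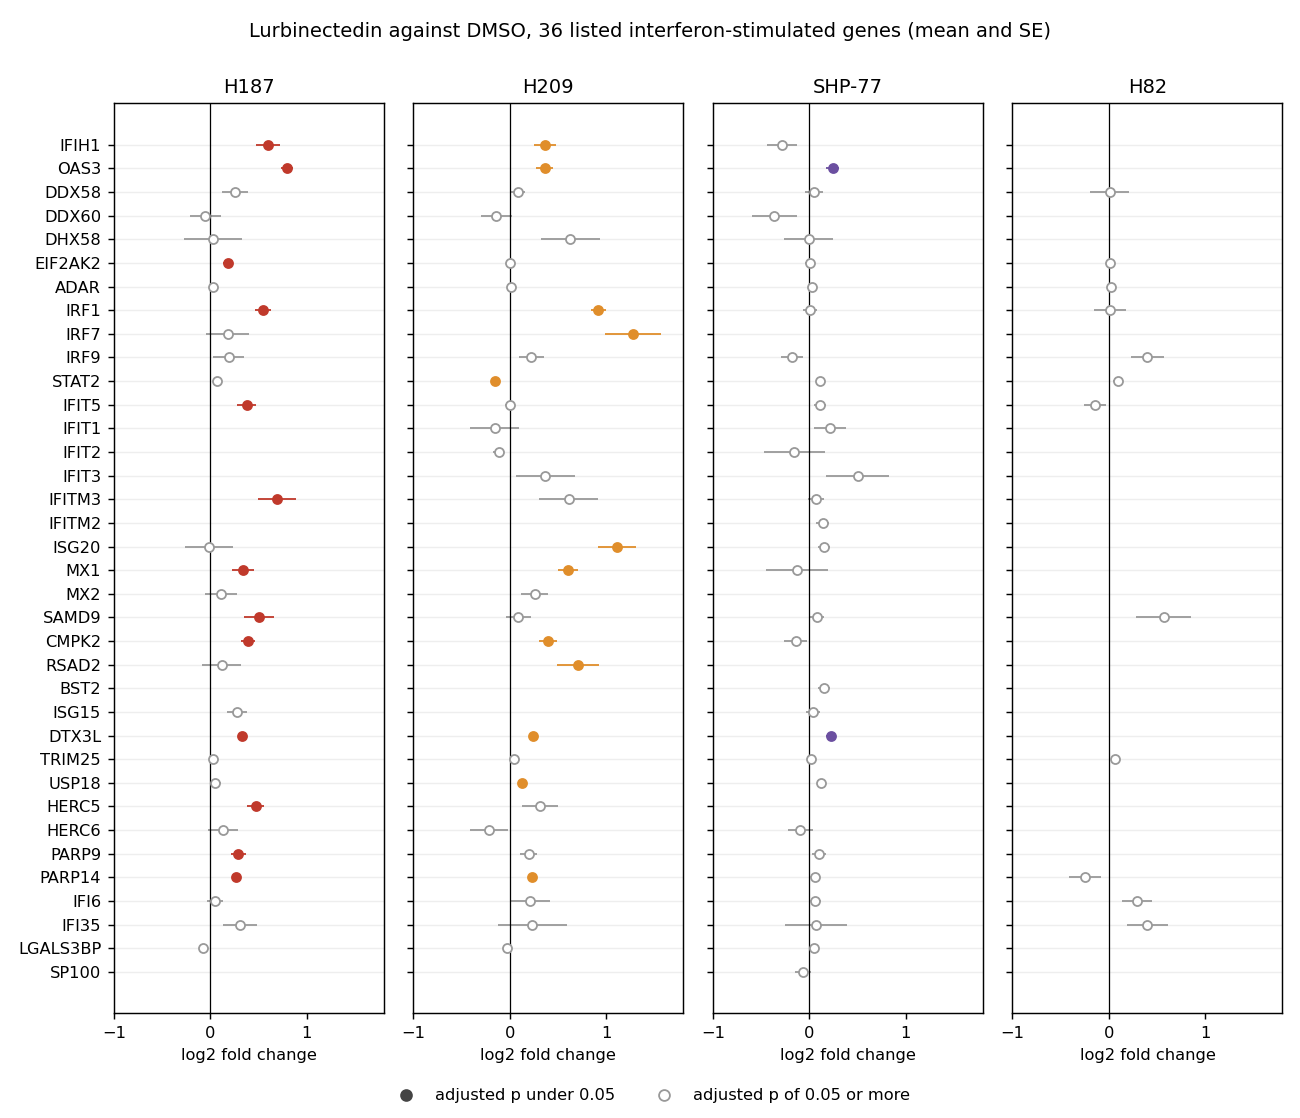
Log2 fold change of lurbinectedin against DMSO for the 36 listed members in each line, ordered by role, with the standard error of the edgeR fit as bars. Filled points passed an adjusted p under 0.05: 13 in H187, 12 in H209 with STAT2 on the left of 0, 2 in SHP-77 and 0 in H82. A gap marks a member that is not listed for that line.

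Of the 29 members tested in both ISL1-high lines, 7 rose in both: OAS3, DTX3L, IRF1, MX1, PARP14, CMPK2 and IFIH1. They were 24.1% of these members, 53.8% of their rises in H187 and 63.6% of those in H209. Of all 13042 genes tested in both lines, 1139 rose in both (8.73%), which were 68.5% of their rises in H187 and 37.3% of those in H209. OAS3 and DTX3L rose in SHP-77 as well. The promoters of the 6 of these with the most rising lines and the smallest adjusted p are shown because these members rose in both lines (RefSeq, GRCh38.p14, 250 bases before to 50 bases after the annotated start). Capitals mark an ISRE-like motif, which is GAAA followed by any 2 bases and GAAA again, and TTCNNNGAA, the GAS motif. Each was searched on both strands, and no matches overlap in the promoters shown. OAS3 lies at chr12:112938224-112938523, plus strand; DTX3L at chr3:122564088-122564387, plus strand; IRF1 at chr5:132490724-132491023, minus strand. MX1 lies at chr21:41420308-41420607, plus strand; PARP14 at chr3:122680589-122680888, plus strand; CMPK2 at chr2:6866586-6866885, minus strand.
OAS3: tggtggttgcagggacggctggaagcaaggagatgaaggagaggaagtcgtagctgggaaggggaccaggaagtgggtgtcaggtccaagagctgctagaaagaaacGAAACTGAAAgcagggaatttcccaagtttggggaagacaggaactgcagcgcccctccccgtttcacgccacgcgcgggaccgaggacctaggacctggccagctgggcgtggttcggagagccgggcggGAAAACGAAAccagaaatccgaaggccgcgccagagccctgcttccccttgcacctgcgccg
DTX3L: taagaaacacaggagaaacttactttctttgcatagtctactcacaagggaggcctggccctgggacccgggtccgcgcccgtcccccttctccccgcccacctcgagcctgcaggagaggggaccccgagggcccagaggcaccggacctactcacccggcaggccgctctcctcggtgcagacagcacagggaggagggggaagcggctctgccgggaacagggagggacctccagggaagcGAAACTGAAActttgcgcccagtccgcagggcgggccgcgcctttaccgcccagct
IRF1: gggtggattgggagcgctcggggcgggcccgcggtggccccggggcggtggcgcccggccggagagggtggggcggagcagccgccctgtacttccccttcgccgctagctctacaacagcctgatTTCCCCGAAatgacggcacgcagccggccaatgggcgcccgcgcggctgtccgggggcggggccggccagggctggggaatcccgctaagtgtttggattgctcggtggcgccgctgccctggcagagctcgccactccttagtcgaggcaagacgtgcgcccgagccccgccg
MX1: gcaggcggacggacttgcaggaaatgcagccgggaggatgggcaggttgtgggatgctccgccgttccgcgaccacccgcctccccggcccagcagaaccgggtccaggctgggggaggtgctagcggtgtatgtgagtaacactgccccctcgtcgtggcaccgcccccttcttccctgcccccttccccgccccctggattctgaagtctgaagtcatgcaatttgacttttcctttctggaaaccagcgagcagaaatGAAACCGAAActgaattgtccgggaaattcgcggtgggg
PARP14: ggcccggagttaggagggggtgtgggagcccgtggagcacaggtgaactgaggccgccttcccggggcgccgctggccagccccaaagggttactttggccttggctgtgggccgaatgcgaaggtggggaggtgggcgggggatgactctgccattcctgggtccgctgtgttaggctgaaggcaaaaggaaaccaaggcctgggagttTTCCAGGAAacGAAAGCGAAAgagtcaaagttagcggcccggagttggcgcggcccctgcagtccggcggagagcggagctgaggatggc
CMPK2: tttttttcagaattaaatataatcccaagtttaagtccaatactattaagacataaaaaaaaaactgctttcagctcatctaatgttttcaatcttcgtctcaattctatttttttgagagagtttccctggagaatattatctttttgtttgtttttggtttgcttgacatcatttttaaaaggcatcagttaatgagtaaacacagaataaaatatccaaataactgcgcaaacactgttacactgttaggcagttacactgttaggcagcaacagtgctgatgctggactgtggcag
OAS3 held the ISRE-like motif 2 times, and DTX3L, MX1 and PARP14 held it once. In PARP14 a GAS motif stood just before it. IRF1 held a GAS motif and no ISRE-like motif, and in CMPK2 neither set of letters was found.

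RefSeq promoters were matched for 36 of the 44 members, with DDX58 under its current symbol RIGI. IFIT2, IFITM2, IRF7, MX2, OAS2, OASL, DHX58 and USP18 had no entry. The ISRE-like motif was in 22 of the 36 (61.1%), and in 1255 of 35116 promoters of all genes (3.57%). The GAS motif was in 9 of the 36, and in 7.66% of all promoters. In H187, 10 of the 15 tested members with the ISRE-like motif rose, as did 3 of the 11 without it. In H209 the counts were 6 of 16 members with it and 3 of 11 without it. In SHP-77 they were 2 of 17 and 0 of 11, and in H82 0 of 5 and 0 of 7. The shares of all genes with and without the motif that rose are not given, so these counts have no background. These are counts of letters in a window and were not tested.

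OAS3, which makes the 2-5A messenger that activates RNase L, had 26.4, 25.3 and 25.1 CPM in the lurbinectedin libraries of H187, against 15.0, 14.3 and 15.0 CPM in its DMSO libraries (log2 fold change 0.79, SE 0.063, adjusted p = 7.23e-09). It had 11.4, 11.4 and 13.3 CPM in the lurbinectedin libraries of H209, against 10.5, 9.29 and 8.36 CPM in its DMSO libraries (log2 fold change 0.36, SE 0.088, adjusted p = 0.000753). In SHP-77 it had 16.1, 14.3 and 14.5 CPM with lurbinectedin, against 12.0, 12.8 and 13.1 CPM with DMSO (log2 fold change 0.24, SE 0.069, adjusted p = 0.0423). The lurbinectedin libraries were all above the DMSO libraries in these 3 lines. The SHP-77 call ended in 8 of 14 alternatives: with DESeq2, with the replicate block, with the correction for genomic span, and without DMSO replicate 1, 2 or 3 or lurbinectedin replicate 1 or 3, where its adjusted p was 0.0516 to 0.244. The OAS3 calls in H187 and H209 held in all 14 alternatives each.

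DTX3L, the E3 ubiquitin ligase partner of PARP9, had 58.8, 63.4 and 63.7 CPM in the lurbinectedin libraries of H187, against 48.0, 47.1 and 52.6 CPM in its DMSO libraries (log2 fold change 0.33, SE 0.050, adjusted p = 3.98e-05). It had 48.4, 48.0 and 47.8 CPM in the lurbinectedin libraries of H209, against 41.8, 39.4 and 41.2 CPM in its DMSO libraries (log2 fold change 0.24, SE 0.043, adjusted p = 8.85e-06). In SHP-77 it had 57.0, 54.8 and 57.1 CPM with lurbinectedin, against 47.1, 48.7 and 49.1 CPM with DMSO (log2 fold change 0.22, SE 0.045, adjusted p = 0.00361). Groups did not overlap in these 3 lines, and the SHP-77 rise held in all alternatives for that gene. PARP14, a mono-ADP-ribosyltransferase, had 61.4, 64.6 and 60.7 CPM in the lurbinectedin libraries of H187, against 48.9, 51.3 and 54.7 CPM in its DMSO libraries (log2 fold change 0.27, SE 0.048, adjusted p = 0.000266). It had 35.4, 37.3 and 36.2 CPM in the lurbinectedin libraries of H209, against 29.6, 32.9 and 29.7 CPM in its DMSO libraries (log2 fold change 0.23, SE 0.051, adjusted p = 0.000167). The groups again stood apart in both lines. PARP9, its neighbour on chromosome 3 that shares a divergent start with DTX3L, had 12.6, 12.6 and 12.0 CPM in the lurbinectedin libraries of H187, against 10.4, 9.96 and 10.0 CPM in its DMSO libraries (log2 fold change 0.29, SE 0.081, adjusted p = 0.0107). In H209 it had 10.2, 10.7 and 9.42 CPM with lurbinectedin, against 8.87, 8.99 and 8.54 CPM with DMSO, without overlap, and missed the threshold (log2 fold change 0.20, SE 0.087, adjusted p = 0.0630).

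Of the transcription factors, 1 of 4 rose in H187, 2 of 4 rose and 1 fell in H209, and 0 of 3 passed in SHP-77 and in H82, where 12.2% of all genes rose in H187 and 22.7% rose and 22.5% fell in H209. IRF1, a factor known to be induced by interferon gamma, had 16.5, 16.0 and 16.8 CPM in the lurbinectedin libraries of H209, against 9.03, 8.96 and 8.17 CPM in its DMSO libraries (log2 fold change 0.92, SE 0.078, adjusted p = 1.50e-13). It had 20.2, 25.5 and 22.0 CPM in the lurbinectedin libraries of H187, against 15.9, 14.7 and 15.8 CPM in its DMSO libraries (log2 fold change 0.55, SE 0.079, adjusted p = 2.54e-05). The lurbinectedin libraries of both lines were all above their DMSO libraries, and among the members in H209 IRF1 had the smallest adjusted p. In SHP-77 IRF1 had 12.7, 13.6 and 13.7 CPM with lurbinectedin, against 14.2, 12.3 and 13.2 CPM with DMSO (log2 fold change 0.0070, SE 0.071, adjusted p = 0.977), and in H82 it had 2.00, 2.07 and 1.85 CPM with lurbinectedin, against 2.01, 1.75 and 2.08 CPM with DMSO (log2 fold change 0.016, SE 0.17, adjusted p = 0.977). The groups overlapped in both of these ISL1-low lines.

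IRF7, which drives the later wave of type I interferon genes, had 1.14, 1.31 and 1.28 CPM in the lurbinectedin libraries of H209, against 0.515, 0.684 and 0.302 CPM in its DMSO libraries (log2 fold change 1.28, SE 0.29, adjusted p = 0.000357). The groups did not overlap, at levels near 1 CPM, and IRF7 is annotated on 2 contigs, an alternate one included, so its counts are uncertain. In H187 IRF7 had 1.22, 2.00 and 1.98 CPM with lurbinectedin, against 1.73, 1.41 and 1.49 CPM with DMSO, with overlap (log2 fold change 0.18, SE 0.22, adjusted p = 0.606). STAT2, a subunit of the factor that binds ISREs, was the 1 member that fell: it had 50.0, 48.7 and 49.5 CPM in the lurbinectedin libraries of H209, against 58.6, 55.6 and 51.3 CPM in its DMSO libraries (log2 fold change -0.16, SE 0.042, adjusted p = 0.00206). All lurbinectedin libraries were below all DMSO libraries in that line. IRF9, the DNA-binding subunit of the same factor, did not pass in any line, with log2 fold changes between -0.18 in SHP-77 and 0.40 in H82.

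**Figure D2:**
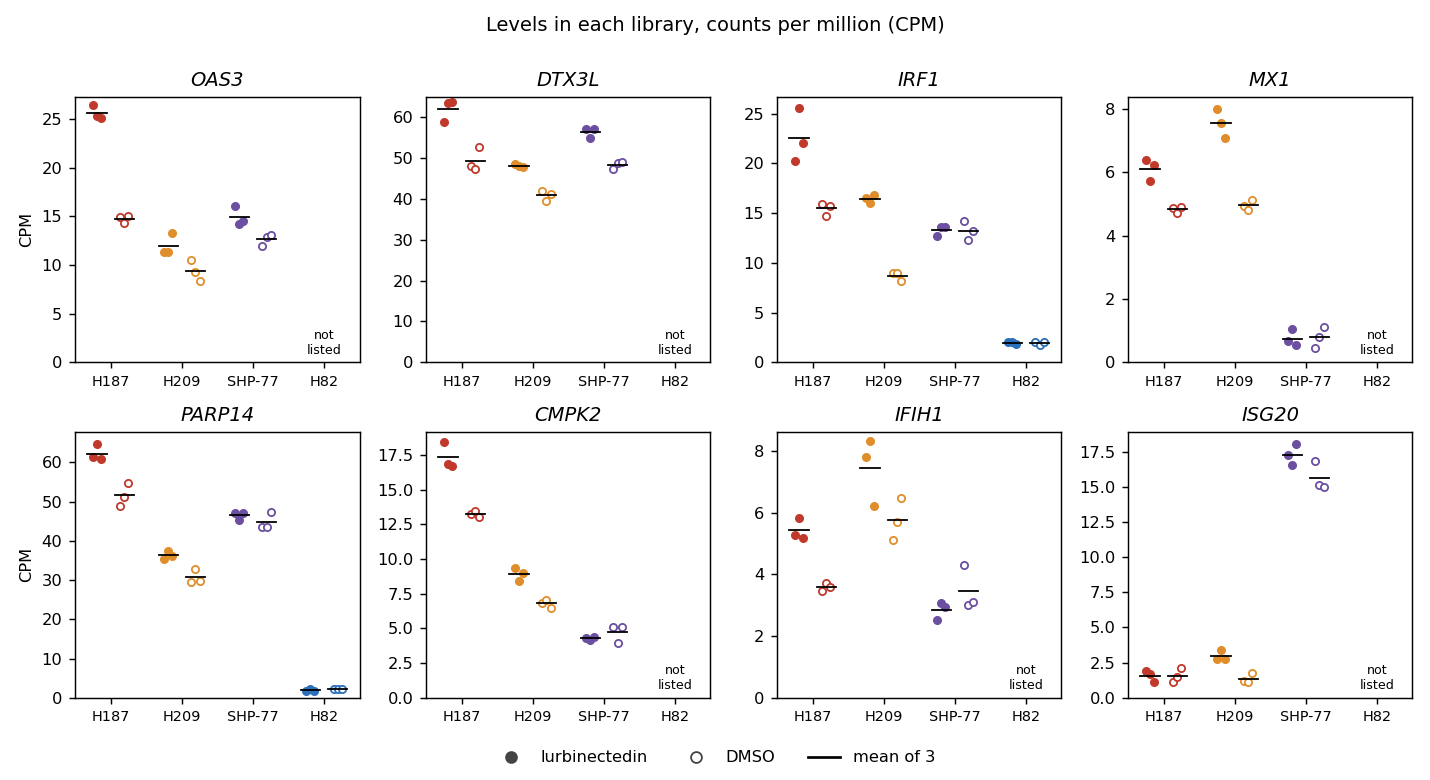
CPM in each library for the 7 members that rose in both ISL1-high lines and for ISG20, with lurbinectedin as filled points left of DMSO as open points and the mean of 3 as a bar. IRF1 stood between 16.0 and 16.8 CPM with lurbinectedin in H209, above 8.17 to 9.03 CPM with DMSO, while its groups overlapped in SHP-77 and H82.

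Among the RNA sensors, IFIH1 encodes MDA5, which detects long double-stranded RNA. IFIH1 had 5.29, 5.84 and 5.17 CPM in the lurbinectedin libraries of H187, against 3.46, 3.72 and 3.60 CPM in its DMSO libraries (log2 fold change 0.60, SE 0.13, adjusted p = 0.00142), with no overlap. It had 7.82, 8.32 and 6.21 CPM in the lurbinectedin libraries of H209, against 5.11, 5.70 and 6.47 CPM in its DMSO libraries (log2 fold change 0.36, SE 0.11, adjusted p = 0.00726), where the lowest treated library fell within the DMSO range. The H209 call ended without DMSO replicate 1 or lurbinectedin replicate 1 or 2, at adjusted p = 0.0518, 0.0502 and 0.0661. EIF2AK2, the kinase PKR that halts translation on double-stranded RNA, had 94.4, 95.6 and 98.9 CPM in the lurbinectedin libraries of H187, against 84.2, 83.8 and 87.0 CPM in its DMSO libraries (log2 fold change 0.18, SE 0.044, adjusted p = 0.00434). Its groups stood apart in H187, and in H209 its log2 fold change was -0.0013 (SE 0.034). DDX58 (RIG-I), DHX58 (LGP2), the helicase DDX60 and the RNA-editing enzyme ADAR did not pass in any line. ADAR was the member with the most counts in all 4 lines, between 282 and 858 CPM per library.

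Of MX1 and the other effectors, 3 of 6 rose in H187, 4 of 6 in H209, 0 of 5 in SHP-77 and 0 of 1 in H82, where the shares over all genes were 12.2%, 22.7%, 1.98% and 1.55%. MX1, a dynamin-like GTPase that traps viral nucleocapsids, had 8.01, 7.54 and 7.09 CPM in the lurbinectedin libraries of H209, against 4.95, 4.82 and 5.14 CPM in its DMSO libraries (log2 fold change 0.60, SE 0.11, adjusted p = 7.19e-06). It had 6.39, 5.72 and 6.23 CPM in the lurbinectedin libraries of H187, against 4.87, 4.71 and 4.91 CPM in its DMSO libraries (log2 fold change 0.34, SE 0.11, adjusted p = 0.0361). No library overlapped between the groups in either line, but the H187 call ended in 8 of 14 alternatives: with DESeq2, with the replicate block, with the correction for genomic span, and without DMSO replicate 1, 2 or 3 or lurbinectedin replicate 1 or 3, where its adjusted p was 0.0574 to 0.112. CMPK2, a mitochondrial nucleotide kinase, had 18.4, 16.8 and 16.7 CPM in the lurbinectedin libraries of H187, against 13.2, 13.4 and 13.0 CPM in its DMSO libraries (log2 fold change 0.39, SE 0.072, adjusted p = 0.000464). It had 9.38, 8.44 and 8.98 CPM in the lurbinectedin libraries of H209, against 6.85, 7.07 and 6.47 CPM in its DMSO libraries (log2 fold change 0.40, SE 0.10, adjusted p = 0.000598). Every treated library stood above the DMSO libraries in both lines, and both calls held in all 14 alternatives.

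RSAD2 (viperin), the divergent neighbour of CMPK2, had 1.86, 2.50 and 1.72 CPM in the lurbinectedin libraries of H209, against 1.23, 1.34 and 1.10 CPM in its DMSO libraries (log2 fold change 0.71, SE 0.22, adjusted p = 0.00641), with no overlap. The call ended without lurbinectedin replicate 2, its highest library, at adjusted p = 0.0619. In H187 RSAD2 had a log2 fold change of 0.12 (SE 0.20, adjusted p = 0.731). ISG20, a 3′ to 5′ exonuclease, had 2.77, 3.40 and 2.73 CPM in the lurbinectedin libraries of H209, against 1.23, 1.14 and 1.74 CPM in its DMSO libraries (log2 fold change 1.11, SE 0.19, adjusted p = 5.94e-06). Its groups did not overlap in H209, whereas in H187 it had 1.94, 1.69 and 1.12 CPM with lurbinectedin, against 1.13, 1.49 and 2.11 CPM with DMSO, with overlap (log2 fold change -0.011, SE 0.25, adjusted p = 0.982). SAMD9, an antiviral translation inhibitor, had 5.44, 5.43 and 5.05 CPM in the lurbinectedin libraries of H187, against 3.57, 2.74 and 4.81 CPM in its DMSO libraries (log2 fold change 0.51, SE 0.16, adjusted p = 0.0210). Its groups stood apart, and the call ended without DMSO replicate 1 or 2 or lurbinectedin replicate 1, where its adjusted p was 0.0584 to 0.127.

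In the ISG15 system, HERC5, the main ligase that attaches ISG15 in human cells, had 9.47, 10.2 and 10.1 CPM in the lurbinectedin libraries of H187, against 6.88, 7.10 and 7.50 CPM in its DMSO libraries (log2 fold change 0.47, SE 0.093, adjusted p = 0.000781). No library overlapped between its groups. ISG15 itself had 9.40, 10.5 and 9.99 CPM in the lurbinectedin libraries of H187, against 9.11, 8.86 and 6.74 CPM in its DMSO libraries, without overlap, and missed the threshold (log2 fold change 0.28, SE 0.11, adjusted p = 0.0610). USP18, which removes ISG15 and restrains signalling at IFNAR2, had 50.7, 54.0 and 53.9 CPM in the lurbinectedin libraries of H209, against 51.0, 46.8 and 47.4 CPM in its DMSO libraries (log2 fold change 0.13, SE 0.042, adjusted p = 0.0110). Its groups overlapped, and the call ended with the correction for genomic span and without DMSO replicate 2 or 3 or lurbinectedin replicate 3, where its adjusted p was 0.0591 to 0.0921. TRIM25, a ligase for RIG-I, and HERC6 did not pass in any line.

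Of the membrane and RNA-binding families, IFITM3, which blocks virus fusion in endosomes, had 2.32, 3.12 and 2.40 CPM in the lurbinectedin libraries of H187, against 1.41, 1.96 and 1.52 CPM in its DMSO libraries (log2 fold change 0.69, SE 0.20, adjusted p = 0.0129), with no overlap. The call ended without DMSO replicate 1 or lurbinectedin replicate 2, at adjusted p = 0.0562 and 0.0833. IFITM3 is nearly identical in sequence to IFITM2, so reads may be split between them. IFIT5, which binds the 5′ ends of RNA, had 9.78, 10.2 and 9.13 CPM in the lurbinectedin libraries of H187, against 8.01, 7.02 and 7.33 CPM in its DMSO libraries (log2 fold change 0.38, SE 0.10, adjusted p = 0.00597). The groups did not overlap in H187, whereas its log2 fold change in H209 was -0.0012 (SE 0.048). IFIT1, IFIT2 and IFIT3, which lie beside it on chromosome 10, were tested in H209 and SHP-77 and passed in neither. IFI6, IFI35 and LGALS3BP did not pass in any line in which they were listed, nor did MX2, BST2, SP100 or IFITM2.

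In H82 the 12 tested members had log2 fold changes between -0.25 for PARP14 and 0.57 for SAMD9. IRF9 was the single one with an unadjusted p under 0.05, with 2.66, 1.94 and 2.47 CPM in the lurbinectedin libraries of H82, against 1.85, 1.53 and 1.96 CPM in its DMSO libraries (log2 fold change 0.40, SE 0.18, adjusted p = 0.232). Its groups overlapped. PARP14 in H82 had 1.71, 2.19 and 1.76 CPM with lurbinectedin, against 2.31, 2.17 and 2.24 CPM with DMSO (log2 fold change -0.25, SE 0.17, adjusted p = 0.463), with overlap. Most members that rose in the ISL1-high lines were not listed for H82, so their response there was not tested. A p that misses the threshold does not show that a gene was unaffected.

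The design also asks whether the response differs between ISL1-high and ISL1-low lines, which could be tested for the 12 members of all 4 line tables. The response was larger in the ISL1-high lines for IRF1, PARP14 and IFIT5 and smaller for STAT2. These are 4 of the 12 members, a share near that of all 11408 genes, of which 31.4% passed. Of all genes, 15.9% had a larger and 15.5% a smaller response. The difference in log2 fold change, ISL1-high minus ISL1-low, was 0.72 (SE 0.10, adjusted p = 1.22e-06) for IRF1 and 0.35 (SE 0.083, adjusted p = 0.00124) for PARP14. It was 0.21 (SE 0.075, adjusted p = 0.0314) for IFIT5 and -0.14 (SE 0.047, adjusted p = 0.0163) for STAT2. The IRF1, PARP14 and STAT2 differences held in every alternative run for them. For PARP14 the ISL1-low side averages a log2 fold change of -0.25 (SE 0.17) in H82 and 0.055 (SE 0.050) in SHP-77. Neither passed, and the H82 groups overlapped at levels near 2 CPM. The PARP14 differences against SHP-77 alone, given below, were smaller and ended without single libraries. The IFIT5 difference ended with DESeq2 and without any 1 of 8 libraries (H187 DMSO replicate 2 and lurbinectedin replicate 2, H209 lurbinectedin replicate 1, SHP-77 DMSO replicate 1 and lurbinectedin replicate 3, and H82 DMSO replicate 1 and lurbinectedin replicates 2 and 3), at adjusted p of 0.0536 to 0.0776. In the single lines IFIT5 passed in H187 and in no other. STAT2 fell in H209 alone, by -0.16 on the log2 scale. Its log2 fold change was 0.073 in H187, close to 0.11 in SHP-77 and 0.095 in H82, and passed in none of them.

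In the fit of all 24 libraries, H209 minus H187 gave 1 member with a larger and 3 with a smaller response of the 12, where 11.1% of all genes passed, 5.65% with a larger and 5.46% with a smaller response. H209 minus H187 was also tested on the 13042 genes of both line tables, of which 10.4% passed, and 2 of 29 members had a larger and 4 a smaller response in H209. ISG20 responded more in H209, by 1.13 (SE 0.32, adjusted p = 0.0215), and so did IRF1, by 0.37 (SE 0.11, adjusted p = 0.0307). OAS3 responded less in H209, with a difference of -0.42 (SE 0.11, adjusted p = 0.0112), as did IFIT5, with -0.37 (SE 0.10, adjusted p = 0.0102). STAT2 had a difference of -0.23 (SE 0.067, adjusted p = 0.0269) and EIF2AK2 one of -0.18 (SE 0.053, adjusted p = 0.0293). The IFIT5 difference was the 1 that held without any single library. Leaving out 1 of the 12 libraries ended the IRF1 call for 8 of them (all but H209 DMSO replicate 1 and lurbinectedin replicate 2, and H187 DMSO replicate 2 and lurbinectedin replicate 2), at adjusted p of 0.0578 to 0.109. It ended the EIF2AK2 call for 6 (H209 DMSO replicate 3 and lurbinectedin replicates 1, 2 and 3, and H187 DMSO replicate 2 and lurbinectedin replicate 3), at 0.0557 to 0.0950. It ended the ISG20 call for 5 (H209 DMSO replicates 1 and 2 and lurbinectedin replicate 2, and H187 DMSO replicate 3 and lurbinectedin replicate 3), at 0.0540 to 0.109, and the OAS3 call for H209 DMSO replicate 1, at 0.0633. It ended the STAT2 call for 4 (H209 DMSO replicate 1 and lurbinectedin replicates 2 and 3, and H187 lurbinectedin replicate 3), at 0.0532 to 0.117.

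SHP-77 could be set against each ISL1-high line on the genes of both tables. In SHP-77 minus H187, 6 of 26 members had a smaller response and none a larger one, where 10.7% of all 12610 genes passed; IFIH1 differed by -0.89 (SE 0.20, adjusted p = 0.00496), OAS3 by -0.55 (SE 0.094, adjusted p = 0.000237) and CMPK2 by -0.53 (SE 0.14, adjusted p = 0.0129). IRF1 differed by -0.54 (SE 0.11, adjusted p = 0.00198) in that pair, and IFITM3 and PARP14 by -0.63 and -0.22. In SHP-77 minus H209, 5 of 28 members had a smaller and 1 a larger response, where 28.4% of all 12872 genes passed. ISG20 differed by -0.97 (SE 0.19, adjusted p = 0.000179), IRF1 by -0.91 (SE 0.11, adjusted p = 2.98e-08) and STAT2 by 0.26 (SE 0.058, adjusted p = 0.000693). CMPK2, IFIH1 and PARP14 differed by -0.54, -0.66 and -0.19. The IFITM3 call ended without any 1 of 8 libraries, at adjusted p up to 0.165. The PARP14 call against H187 ended without any 1 of 8 libraries, at adjusted p up to 0.106, and with the correction for genomic span, at 0.05002. The PARP14 call against H209 ended without any 1 of 6 libraries, at adjusted p up to 0.114, with DESeq2 at 0.0776 and with the correction for genomic span at 0.0544. The IFIH1 call against H209 ended without SHP-77 DMSO replicate 1, at 0.0828. The libraries of SHP-77 enter both pairs, so these differences are not independent of each other.

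Baseline levels were compared under DMSO for the 12 members of all 4 line tables. The CPM given here were scaled within each line, so levels of different lines stand on a shared scale only roughly. The tested differences come from a joint fit of the DMSO libraries. With scaling per line, the spread of the line means was narrowest for TRIM25 and EIF2AK2, both at 0.70 on the log2 scale and too close to rank. STAT2 followed at 1.49. TRIM25 had 121, 123 and 121 CPM in H187 with DMSO, 106, 108 and 100.5 CPM in H209, 78.2, 77.7 and 77.5 CPM in SHP-77 and 73.6, 72.7 and 78.5 CPM in H82. For SHP-77 minus H82 the TRIM25 difference in the joint fit missed the threshold, at -0.050 (SE 0.043, adjusted p = 0.273) on the log2 scale. In the CPM scaled per line, the libraries of both ISL1-high lines were above those of both ISL1-low lines. EIF2AK2 had 84.2, 83.8 and 87.0 CPM in H187 with DMSO, 93.3, 96.5 and 99.7 CPM in H209, 56.2, 64.7 and 57.2 CPM in SHP-77 and 60.5, 59.2 and 62.5 CPM in H82. Its ISL1-high libraries were likewise all above its ISL1-low libraries. STAT2 had 63.9, 66.7 and 61.4 CPM in H187 with DMSO, 58.6, 55.6 and 51.3 CPM in H209, 51.3, 51.3 and 52.4 CPM in SHP-77 and 23.4, 23.4 and 21.8 CPM in H82, with H82 apart at the low end.

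With the same scaling per line, the widest spreads were those of SAMD9 at 4.62, PARP14 at 4.53 and IFI6 at 3.25 on the log2 scale. SAMD9 had 10.6, 12.3 and 13.1 CPM in SHP-77 with DMSO, 4.95, 4.30 and 4.88 CPM in H209, 3.57, 2.74 and 4.81 CPM in H187 and 0.408, 0.573 and 0.481 CPM in H82. H209 minus H187 missed the threshold, at 0.26 (SE 0.16, adjusted p = 0.121) on the log2 scale. PARP14 had 48.9, 51.3 and 54.7 CPM in H187 with DMSO, 29.6, 32.9 and 29.7 CPM in H209, 43.5, 43.4 and 47.3 CPM in SHP-77 and 2.31, 2.17 and 2.24 CPM in H82, where H82 was far below the others. IFI6, a mitochondrial survival protein, had 17.9, 16.2 and 16.0 CPM in SHP-77 with DMSO, 13.2, 13.8 and 11.6 CPM in H187, 1.58, 1.79 and 1.89 CPM in H209 and 2.45, 2.74 and 2.50 CPM in H82. It was high in 1 line of each class and low in the other line of each.

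Line pairs differed in nearly all members under DMSO, as nearly all genes did. Of the 12, 12 were higher and 0 lower in H187 than in H82 (88.8% of all genes passed, 44.6% higher), 10 higher and 2 lower in H209 than in H82 (88.8%, 45% higher), and 9 higher and 2 lower in SHP-77 than in H82 (88.8%). Between H209 and H187 3 were higher and 7 lower in H209 (86%, with 43.3% higher and 42.7% lower). SHP-77 was higher in 5 and lower in 7 against H187 (88.2%), and higher in 7 and lower in 4 against H209 (87.2%). On the larger tables of both lines of a pair, 5 of 29 members were higher and 15 lower in H209 than in H187 (85.7%), 12 of 26 higher and 11 lower in SHP-77 than in H187 (88%), and 17 of 28 higher and 10 lower in SHP-77 than in H209 (87.8%). With the mean of each class under DMSO, 10 of 12 members were higher and 1, IFI6, was lower in the ISL1-high lines, where 89.1% of all genes passed and 45.3% were higher. With class as the only term, so that the spread between lines of a class counts as error, 2 of 12 passed. The share of all genes that passed in that fit is not given.

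The class table extended the level comparison to 33 members in the lurbinectedin libraries. Its counts equal those of the line tables for genes listed in both. H82 was the lowest line for 28 of the 33 members and the highest for 0. How often H82 was lowest over all genes of the table is not given. The median of the member means was 6.12 CPM in H187, 7.02 in H209 and 9.98 in SHP-77, against 0.245 in H82, and the median over all genes of the table lay between 24.3 and 25.8 CPM in every line. In H82, 22 of 33 members averaged under 1 CPM, against 4 in H187, 6 in H209 and 8 in SHP-77. Over the 3 H82 libraries, 13 members had at most 3 counts (39.4%), as did 3.66% of all 14463 genes of the table. A gene enters this table through any line in which it is expressed, so this order of lines and these shares describe genes that at least 1 line expresses.

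**Figure D3:**
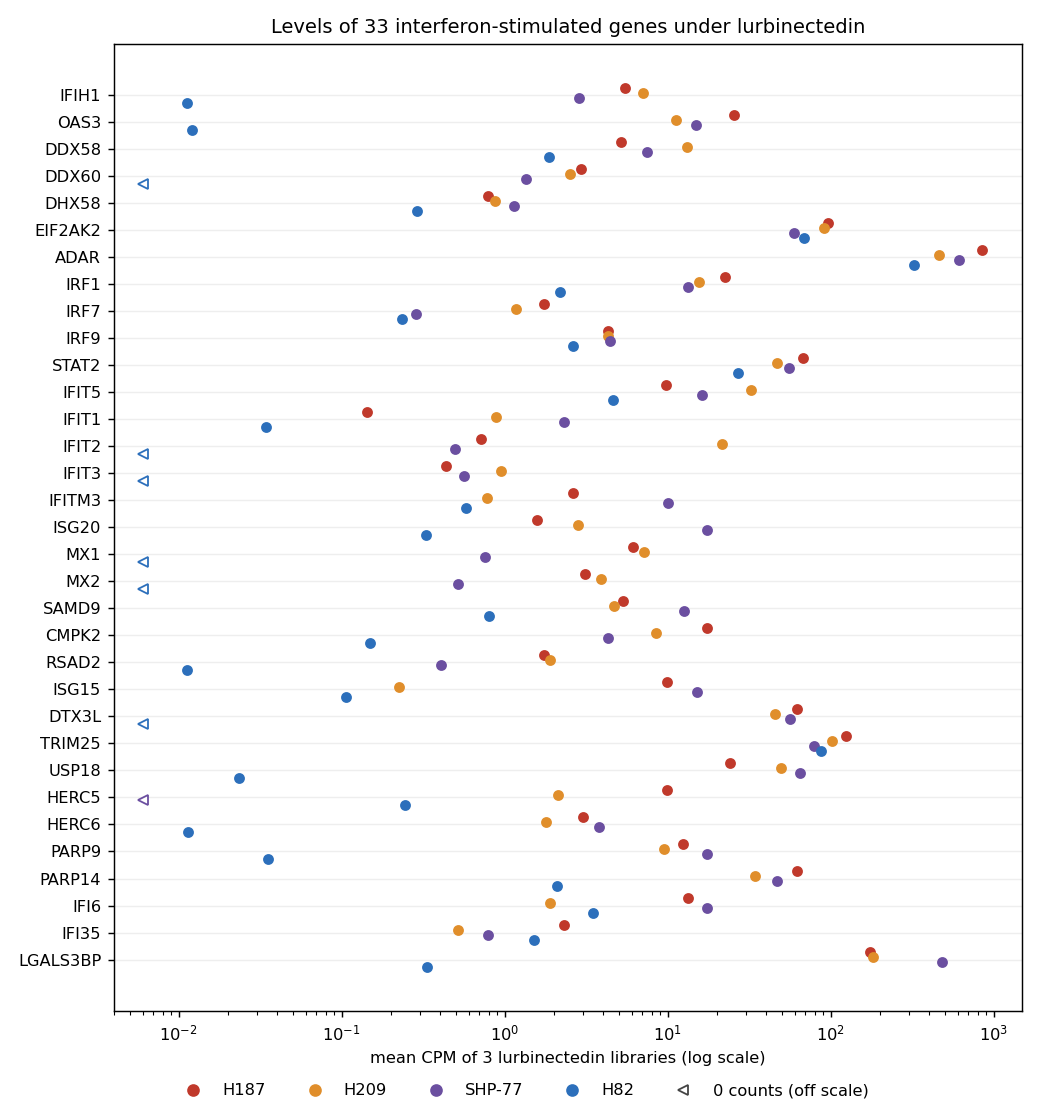
Mean CPM over 3 lurbinectedin libraries for the 33 members of the class table in each line, on a log axis, ordered by role. H82 lies left of the other lines for 28 members, and open triangles mark 0 counts: 6 members in H82 and HERC5 in SHP-77.

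No read was counted in H82 for IFIT2, IFIT3, MX1, MX2, DDX60 and DTX3L, where 3 counts over the 3 libraries would be 0.0347 CPM. Scaled with the 12 lurbinectedin libraries, DTX3L had 58.7, 63.4 and 64.0 CPM in H187, 45.6, 45.1 and 45.2 CPM in H209 and 57.0, 54.8 and 57.1 CPM in SHP-77, against 0 counts in each H82 library. It was at least 1786-fold higher in H187, at least 1304-fold higher in H209 and at least 1621-fold higher in SHP-77 than in H82. MX1 was at least 176-fold higher in H187, at least 205-fold higher in H209 and at least 21.7-fold higher in SHP-77 than in H82. MX2 was at least 89.1-fold, 112-fold and 14.8-fold higher in H187, H209 and SHP-77 than in H82, and DDX60 at least 84.7-fold, 72.1-fold and 39.1-fold higher.

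A further 7 members had 1 to 3 counts in H82: IFIH1, IFIT1, OAS3, PARP9, USP18, HERC6 and RSAD2. OAS3 had 2291 counts in H187, 1020 in H209 and 1348 in SHP-77, against 1 in H82. On the TMM scale its ratio to H82 was 2210.0 in H187 (95% counting interval 396 to 87340), 979.7 in H209 (175 to 38730) and 1292 in SHP-77 (232 to 51080). USP18 had 2162 counts in H187, 4473 in H209 and 5867 in SHP-77, against 2 in H82. Its ratio to H82 was 1043 in H187 (288 to 8617), 2148 in H209 (594 to 17740) and 2813 in SHP-77 (778 to 23230). PARP9 had 1112, 854 and 1582 counts in H187, H209 and SHP-77, against 3 in H82, with ratios of 358 (122 to 1737), 273 (93.3 to 1329) and 506 (173 to 2454), where DTX3L beside it had 0. These intervals cover counting error alone. IFIH1 had 488, 627 and 256 counts in H187, H209 and SHP-77, against 1 in H82.

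Other members were counted at higher levels in H82. TRIM25 averaged 125 ± 1.75 CPM in H187, 102 ± 3.51 in H209, 78.6 ± 1.79 in SHP-77 and 86.8 ± 1.03 in H82 (SD, n = 3 each). ADAR, EIF2AK2, STAT2 and IFIT5 also stood above 4 CPM in H82. Per kilobase of exon, which allows genes to be compared, ADAR reached 45.5 CPM per kb in H82 and was the highest member there, followed by EIF2AK2 at 15.7 and TRIM25 at 15.1. In H187 ADAR was highest at 120.2 CPM per kb, with LGALS3BP at 76.5. In H209 LGALS3BP was at 80.8 and ADAR at 65.2, and in SHP-77 LGALS3BP was highest at 214.

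Other members varied widely between lines under lurbinectedin. LGALS3BP, a secreted galectin-3 binding glycoprotein, averaged 483 ± 8.03 CPM in SHP-77, 183 ± 7.66 in H209, 173 ± 1.51 in H187 and 0.332 ± 0.135 in H82 (SD, n = 3 each). IFIT2 averaged 21.6 ± 0.218 CPM in H209, against 0.717 ± 0.305 in H187 and 0.492 ± 0.0927 in SHP-77, while IFIT3, its neighbour, averaged 0.951 ± 0.383 in H209, 0.439 ± 0.0541 in H187 and 0.563 ± 0.0753 in SHP-77. ISG15, the ubiquitin-like modifier, averaged 15.1 ± 1.29 CPM in SHP-77 and 9.96 ± 0.548 in H187, against 0.224 ± 0.0672 in H209 and 0.106 ± 0.0738 in H82. For ISG15, H209 minus H82 missed the threshold, at 1.06 (SE 0.59, adjusted p = 0.0840) on the log2 scale.

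HERC5, the ISG15 ligase, averaged 9.91 ± 0.403 CPM in H187 and 2.13 ± 0.126 in H209, and had 0 counts in SHP-77 and 21 in H82. It was at least 298-fold higher in H187 and at least 64.0-fold higher in H209 than in SHP-77. ISG20 averaged 17.3 ± 0.760 CPM in SHP-77, 2.79 ± 0.350 in H209, 1.58 ± 0.416 in H187 and 0.327 ± 0.117 in H82, with SHP-77 above all others. IFITM3 averaged 9.97 ± 0.774 CPM in SHP-77, 2.61 ± 0.442 in H187, 0.778 ± 0.143 in H209 and 0.577 ± 0.107 in H82. For IFITM3, H209 minus H82 missed the threshold, at 0.44 (SE 0.29, adjusted p = 0.147) on the log2 scale. IRF7 averaged 1.73 ± 0.450 CPM in H187, 1.17 ± 0.0872 in H209, 0.286 ± 0.109 in SHP-77 and 0.233 ± 0.0820 in H82. SHP-77 minus H82 missed the threshold for IRF7, at 0.31 (SE 0.47, adjusted p = 0.530).

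Under lurbinectedin 27 of 33 members were higher and 2, IFI6 and IFITM3, lower in the mean of the ISL1-high lines than in that of the ISL1-low lines, where 88.9% of all 14463 genes passed, 47% higher and 41.9% lower. All 33 members were higher in H187 than in H82 (90.1% of all genes passed, 46.4% higher), 29 were higher and 2 lower in H209 than in H82 (90.2%, 46.7% higher), and 28 were higher and 4 lower in SHP-77 than in H82 (89.6%). Against the ISL1-high lines SHP-77 was higher in 12 and lower in 17 members (H187, 89.6%), and higher in 16 and lower in 15 (H209, 88.9%). Between the ISL1-high lines 10 were higher and 17 lower in H209 than in H187 (87%, with 42.6% lower). With class as the only term 8 of 33 passed, and 9 in the authors' deposited table. Shares of all genes that passed are not given for either. In both the log2 difference of LGALS3BP was -0.44 and that of SAMD9 -0.43, the other direction.

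The pathway genes around the members were listed unevenly. None of 9 interferon genes was listed in any table, while all 6 receptor subunits were. Under lurbinectedin IFNAR1, a type I receptor subunit, averaged 103 CPM in H187, 102 in H209 and 113 in SHP-77, against 76.4 in H82. JAK1, a kinase bound to that receptor, averaged 59.8 CPM in H187, 85.5 in H209 and 61.4 in SHP-77, against 29.6 in H82. TMEM173, which encodes STING, averaged 18.1 CPM in H187, 5.87 in H209 and 15.9 in SHP-77, against 0.0583 in H82. IKBKE, a kinase that activates IRF3, averaged 11.9 CPM in H187, 2.16 in H209 and 9.46 in SHP-77, against 0.128 in H82. The feedback inhibitor SOCS3 averaged 51.6 CPM in H187, 25.6 in H209 and 27.1 in SHP-77, against 0.388 in H82. These genes are examples, each lowest in H82. Levels of the other pathway genes are not given in the text, so the examples do not describe the pathway as a whole. For H82 itself, 6 of 6 receptor genes and 5 of 5 JAK-STAT genes were listed. So were 3 of the 6 upstream sensing genes listed in any table and 3 of 5 negative regulators.

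**Figure D4:**
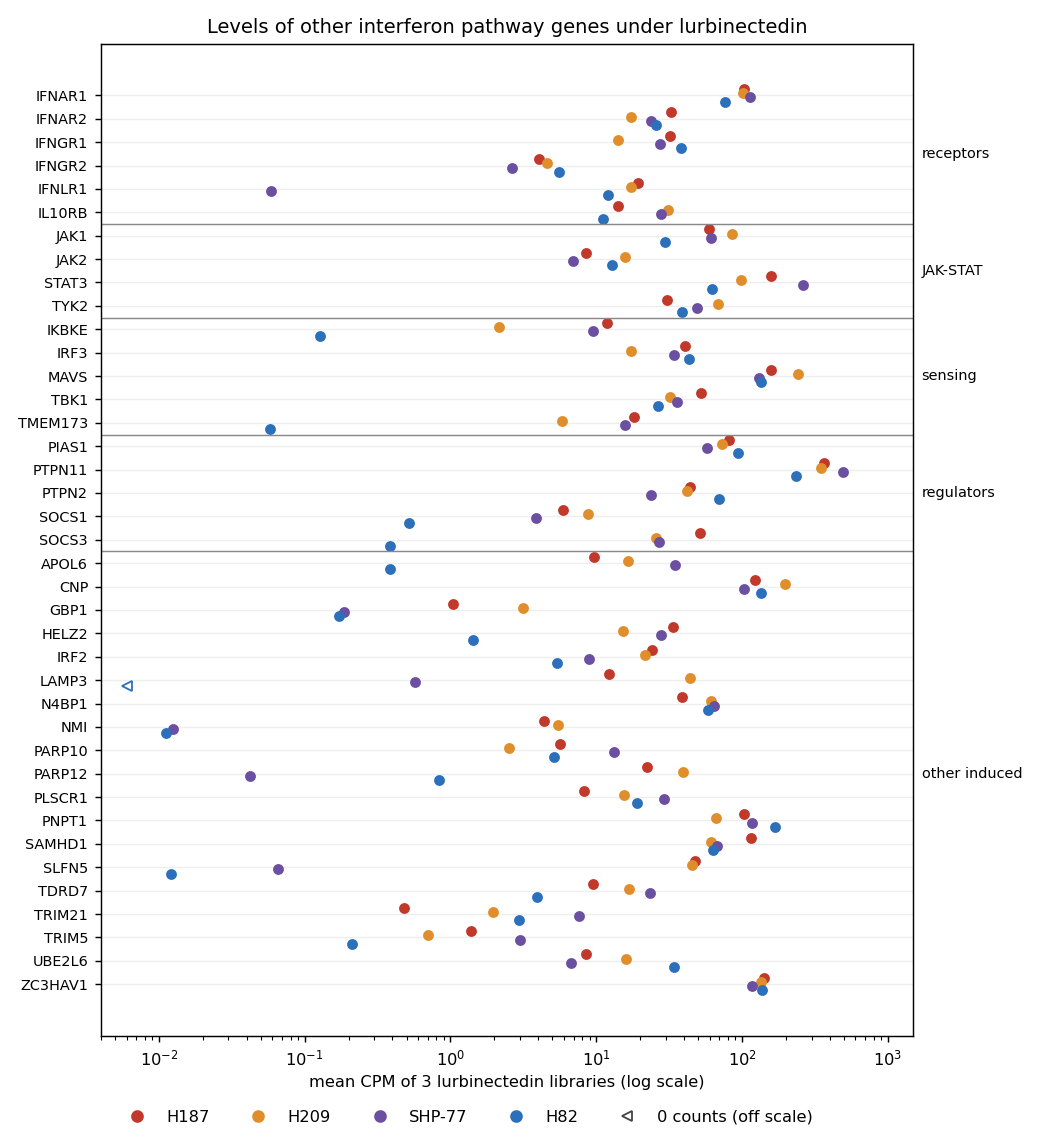
Mean CPM over 3 lurbinectedin libraries for interferon pathway genes that are not members, in each line, on a log axis and grouped as receptors, JAK-STAT, sensing, negative regulators and other induced genes. H82 lies at 76.4 CPM for IFNAR1 and far left for TMEM173, at 0.0583 CPM, and the open triangle marks LAMP3 with 0 counts in H82.

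Other interferon-induced genes outside the members, a list of 28 of which 19 were listed, were counted in the same way. In H187 8 of 18 rose and 1 fell, where 12.2% of all genes rose and 12.7% fell. In H209 9 of 19 rose and 2 fell, where 22.7% of all genes rose and 22.5% fell. In SHP-77 2 of 15 rose, against 1.98% of all genes, and in H82 1 of 14 did, against 1.55%. APOL6, a cytosolic apolipoprotein, rose by 1.25 (SE 0.087, adjusted p = 2.66e-16) in H209, by 0.52 (SE 0.11, adjusted p = 0.00107) in H187 and by 0.18 (SE 0.052, adjusted p = 0.0499) in SHP-77. LAMP3, a lysosomal membrane protein, rose by 0.60 (SE 0.048, adjusted p = 2.29e-14) in H209 and by 0.33 (SE 0.10, adjusted p = 0.0164) in H187. SLFN5 rose by 0.38 (SE 0.045, adjusted p = 2.02e-09) in H209 and by 0.36 (SE 0.050, adjusted p = 1.61e-05) in H187. CNP, HELZ2, NMI and PARP12 rose in both ISL1-high lines too, PARP10 in H187, and GBP1 and UBE2L6 in H209. PNPT1 fell in both and ZC3HAV1 in H209, HELZ2 rose in SHP-77 and UBE2L6 in H82.

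In H187 3 of 6 receptor genes rose (IFNAR2, IFNLR1 and IL10RB), with IFNLR1 at 0.43 (SE 0.075, adjusted p = 0.000225), and in H209 2 of 6 (IFNLR1 and IL10RB), while IFNGR2 was the 1 that rose in H82, by 0.79 (SE 0.21, adjusted p = 0.0475). Of the upstream sensing genes 3 of 5 rose in H187 (IKBKE, IRF3 and TBK1) and 3 of 5 in H209 (IKBKE, IRF3 and TMEM173), and MAVS rose in SHP-77. These counts stand beside 12.2% of all genes that rose in H187, 22.7% in H209, 1.98% in SHP-77 and 1.55% in H82. TMEM173 rose by 0.37 (SE 0.12, adjusted p = 0.00771) in H209. Among the kinases and STATs TYK2 rose in H209 and SHP-77 and STAT3 fell in H209, by 0.21 on the log2 scale. Of the negative regulators SOCS1 rose in H209, by 0.55 (SE 0.10, adjusted p = 1.35e-05), PIAS1 and PTPN11 fell there, and SOCS3 and PTPN2 fell in H187.

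The members lie on many chromosomes, with neighbours among them that share sequence or a start. The IFIT genes lie together on chromosome 10, IFITM2 and IFITM3 on chromosome 11, MX1 and MX2 on chromosome 21, HERC5 and HERC6 on chromosome 4, and PARP9, DTX3L and PARP14 on chromosome 3. Their genomic span had a median of 19.6 kb, against 26.7 kb for all listed genes. Exons of 8 members overlap an exon on the other strand: IRF1, MX1, EIF2AK2, PARP9, DTX3L, SP100, TRIM25 and CMPK2. The libraries were stranded, but whether counting used the strand is not given in the sources used here, so reads of these genes and their partners cannot be told apart here.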

How the data were processed

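RNA was sequenced from 24 libraries in 8 groups of 3, made with a stranded total RNA kit after ribosomal RNA removal, per the labels' protocols. The authors' tables hold raw counts per gene, deposited for each line and for the ISL1 classes under lurbinectedin. The submitters' processing notes name STAR 2.7.10a, featureCounts, Subread 2.0.3, edgeR 4.2.0 and the hg38 build; the annotation is not given in the sources used here. The log2 fold changes and p-values of the authors' deposited table were used only as an alternative, and the authors' signed fold change, a score, was not analysed. For genes listed in both a line table and the class table, all 160491 lurbinectedin counts were equal. Counts of genes listed in the class table but not for a line could not be checked in this way.

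Counts were fitted per table with edgeR 4.0.16 in R 4.3.3 (filterByExpr with a minimum count of 10 and a total of 15, TMM, quasi-likelihood test, Benjamini-Hochberg adjustment over all genes, threshold 0.05), and every adjusted p is from this test unless DESeq2 1.42.0 is named. Line and class differences were contrasts in fits with 1 term per group. CPM are TMM-scaled. A level of 0 counts was set to 3 counts over the 3 libraries, on the TMM scale, for bounds on folds, and ratios on 1 to 3 counts have exact 95% intervals; both cover counting error only. Alternatives were another scaling, count filters, DESeq2, the replicate block, lowess corrections for genomic span and GC content, a fold threshold, and each library left out. Fits for genes of both tables of a pair, level comparisons under lurbinectedin and the GC correction were chosen after seeing the data. The members and gene lists were chosen with earlier results of these data known. Of the pathway lists, 1 further gene is not reported here. Every member is named; values in every library are given for members called in a line and for the 3 narrowest and 3 widest DMSO spreads.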

Additional observations from a re-analysis of the deposited data

Results flagged for a closer look

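The results here are differences between lines in the response to lurbinectedin that passed the test of the difference itself (edgeR, adjusted p under 0.05), given as differences in log2 fold change. In ISL1-high minus ISL1-low lines they were 0.72 for IRF1, 0.35 for PARP14, 0.21 for IFIT5 and -0.14 for STAT2. In H209 minus H187, fitted with all 24 libraries, they were 0.36 for IRF1, -0.18 for EIF2AK2, -0.38 for IFIT5 and -0.23 for STAT2. Leaving out 1 library ended the IRF1 and EIF2AK2 calls of that fit for 7 of 24 libraries each, at adjusted p up to 0.100 for IRF1 and 0.0942 for EIF2AK2, and the STAT2 call for 2, at up to 0.0561. On the genes of both tables, H209 minus H187 gave 1.13 for ISG20, 0.37 for IRF1, -0.18 for EIF2AK2, -0.23 for STAT2, -0.37 for IFIT5 and -0.42 for OAS3. SHP-77 minus H187 gave -0.89 for IFIH1, -0.63 for IFITM3, -0.55 for OAS3, -0.54 for IRF1, -0.53 for CMPK2 and -0.22 for PARP14. SHP-77 minus H209 gave -0.97 for ISG20, -0.91 for IRF1, -0.66 for IFIH1, -0.54 for CMPK2, -0.19 for PARP14 and 0.26 for STAT2. These fits share libraries, and a line differs from another in much besides ISL1, which cannot be told apart with a pair of lines in each class.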

How the results depend on the processing

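Of 531 alternative values of the 26 counts of members called, 489 stayed within 1.5 times the count reported and 42 did not. Of 1800 alternative values of single members, 1640 kept direction and call, 155 lost the call and 5 changed direction. With a fold threshold added (a log2 change of 1 or more in size), 0 members passed in H187, 2 in H209 and 0 in SHP-77; 0 in the response difference of the classes and 0 in that of H209 minus H187; and 1, 0 and 0 on the genes of both tables for H209 minus H187, SHP-77 minus H187 and SHP-77 minus H209. Under DMSO the same requirement left 3 between the classes, 4 for H209 minus H187, 7 for H187 minus H82, 7 for H209 minus H82, 3 for SHP-77 minus H187 and 3 for SHP-77 minus H209, and 8, 9 and 8 on the genes of both tables for H209 minus H187, SHP-77 minus H187 and SHP-77 minus H209. Under lurbinectedin it left 13 for H209 minus H187, 14 for SHP-77 minus H187 and 15 for SHP-77 minus H209. With all 24 libraries in 1 fit, which tests only the 12 members of all 4 line tables, 5 passed in H187, 3 in H209 and 0 in SHP-77. In SHP-77 1 member passed with DESeq2, 1 with the replicate block and 1 with the correction for genomic span, and 1 to 2 without single libraries. Without single libraries 1 to 4 passed for the response difference H209 minus H187, and 3 to 7 on the genes of both tables. With class as the only term 2 passed under DMSO, where SAMD9 was at -0.62, and 8 under lurbinectedin, where LGALS3BP was at -0.44 and SAMD9 at -0.43. The authors' deposited table called 9 under lurbinectedin, with LGALS3BP at -0.44 and SAMD9 at -0.43. The cause was not tested, except that class as the only term counts the spread between lines as error. Shares of all genes that passed in the alternatives are not given, so these counts of members cannot be set against a background.

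Same-numbered lurbinectedin and DMSO libraries had correlations of their deviations from the group means of -0.157 to 0.0754, so no shared replicate effect was seen. With 3 libraries a group, this cannot show that the samples were unpaired. With the replicate block the members passing were 12 for H187, 12 for H209, 1 for SHP-77 and 0 for H82. The shares of all genes passing with the block are not given, so these counts do not compare the lines. With 3 libraries a group, members near 1 CPM have wide errors, and members that are not listed for H82 have no tested response there.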
